A study of Mus musculus with 8 samples.

Results

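Genes of the MHC class I presentation pathway were examined in TA muscles of dystrophic and WT mice. The set was fixed by gene symbol and holds 10 of the 55401 genes in the deposited table: the class I heavy chains H2-K1 and H2-D1, their light chain B2m, the peptide transporter subunits Tap1 and Tap2, the loading chaperone Tapbp, the inducible proteasome subunits Psmb8, Psmb9 and Psmb10, and the class I transactivator Nlrc5. All 10 symbols were found. The study measured gene expression by bulk RNA-seq in whole tibialis anterior (TA) muscles, a fast muscle of the lower hind limb. It compared 4 samples from mdx5cv mice, a model of Duchenne muscular dystrophy (DMD) whose Dmd gene is mutated, with 4 from WT mice. All mice were males, 6 months old and on the C57/Bl6 background, and each labelled replicate gave 1 library. No treatment is given for either group. Since the mutation is present in every cell of the mdx5cv mice, the comparison is not specific to muscle fibers.

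MHC class I molecules display short peptides from the cell's own proteins to CD8 T cells. The peptides are cut by the proteasome, carried into the endoplasmic reticulum by the transporter TAP and fitted onto a heavy chain that is paired with beta-2 microglobulin. Under interferon gamma, cells exchange the catalytic subunits of the standard proteasome for inducible ones, which gives the immunoproteasome. Healthy muscle fibers show little class I on their surface, and its appearance on fibers is a known feature of inflammatory and dystrophic muscle.

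The libraries held 13862559 to 14921057 recovered reads in WT muscle and 13175524 to 14502624 in mdx5cv muscle. Mitochondrial genes took 30.0% to 38.7% of reads in WT and 25.3% to 32.1% in mdx5cv. Values below are normalized counts, that is, reads divided by a size factor of the library. Dmd itself had 6954 ± 857 normalized counts in WT and 3964 ± 388 in mdx5cv (SD, n = 4 each), with no overlap between the groups (log2 fold change -0.81, SE 0.12, limma adjusted p = 0.000177). Fast fiber markers summed to 3035340 to 3254102 normalized counts in WT and 2070862 to 2830299 in mdx5cv, so the labelled tissue was present in every library.

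Of the 10 genes, 8 had a RefSeq promoter window, taken from 250 bases before to 50 bases after the start of a transcript (GRCm38.p6). None was found in the table used here for Tap2 and Nlrc5. The windows of H2-K1, H2-D1 and B2m are shown first, because these 3 genes encode the class I molecule itself and carry the enhancer module through which NLRC5 is known to act. Capitals mark the NF-kappa B consensus, the core of the interferon-stimulated response element (GAAA and, after 2 bases, a further GAAA), the X2 core TGACG and the Y box ATTGG, which reads CCAAT on the other strand. The H2-K1 sequence is chr17:34000324-34000473 on the minus strand, the H2-D1 sequence is chr17:35262908-35263057 on the plus strand and the B2m sequence is chr2:122147524-122147673 on the plus strand.
H2-K1: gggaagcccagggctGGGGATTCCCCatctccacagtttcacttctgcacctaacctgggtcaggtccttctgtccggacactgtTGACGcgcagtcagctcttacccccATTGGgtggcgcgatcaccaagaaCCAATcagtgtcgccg
H2-D1: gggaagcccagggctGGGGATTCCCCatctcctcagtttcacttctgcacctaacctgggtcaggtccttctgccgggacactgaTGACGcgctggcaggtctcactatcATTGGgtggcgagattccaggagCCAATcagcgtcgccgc
B2m: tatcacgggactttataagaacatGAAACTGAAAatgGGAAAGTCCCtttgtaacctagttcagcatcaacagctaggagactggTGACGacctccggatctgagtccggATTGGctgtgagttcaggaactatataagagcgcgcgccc
The H2-K1 and H2-D1 stretches were identical at 117 of 150 positions without gaps (78.0%), whereas B2m matched them at 37.3% and 36.7%. In all 3, TGACG was followed by ATTGG with 25 bases from the first base of one to the first base of the other. That arrangement was seen in 31 of the 32851 RefSeq windows (0.0944%), against 20.8% of windows with TGACG and 37.4% with ATTGG on either strand. The spacing was chosen after these sequences had been read, so its rarity is a description. Among the 24 other genes with this spacing, 19 were tested, and their log2 fold changes had a median of 0.02. At an adjusted p under 0.05, 6 of them lay above WT and 3 below, against 20.9% and 20.1% of all genes tested. With a log2 fold change of at least 1 in size as well, 1 lay above and 1 below, against 10.3% and 3.27%. The 1 above was H2-M3, a further class I heavy chain gene (log2 fold change 1.33, limma adjusted p = 0.00311).

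The NF-kappa B consensus was found in the windows of H2-K1, H2-D1 and B2m and in 4.51% of all windows. The exact interferon-stimulated response element core was found only in the window of B2m among the 8 genes, 139 bases before the start. It was found in 3.44% of all windows. Forms of the element that depart from GAAA, 2 bases and GAAA were not searched for. Whether the windows of H2-K1, H2-D1 and the other genes hold such a form was therefore not tested. Tap1 and Psmb9 lie head to head on opposite strands with RefSeq starts 226 bases apart, and their windows share 275 bases. The shared stretch, chr17:34187306-34187580 on the plus strand, is shown with TGACG and the Y box in capitals because both RefSeq starts lie within it.
Tap1 and Psmb9: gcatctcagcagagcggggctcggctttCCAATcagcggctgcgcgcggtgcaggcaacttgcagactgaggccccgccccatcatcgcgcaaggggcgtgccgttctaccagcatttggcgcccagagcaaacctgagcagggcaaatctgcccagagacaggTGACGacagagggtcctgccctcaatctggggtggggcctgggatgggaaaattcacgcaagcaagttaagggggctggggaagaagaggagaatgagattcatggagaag
A gamma-activated sequence, TTC and GAA with 3 bases between them, was found in the window of Psmb8, 97 bases before the start, and in 8.30% of all windows. It is capitalized in chr17:34198073-34198131 (plus strand).
Psmb8: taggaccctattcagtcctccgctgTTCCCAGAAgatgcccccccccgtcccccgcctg
The Tapbp window held only the Y box among the motifs searched, and the Psmb10 window held none of them. A match is a description of letters and not evidence of binding.

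All 10 genes had more transcript in mdx5cv muscle than in WT muscle, by 1.57-fold (Psmb10) to 3.97-fold (Nlrc5). Every gene was tested, and each had an adjusted p under 0.05 (10 of 10 higher, against 20.9% of all 13677 genes tested). In each of the 10, all 4 mdx5cv muscles lay above all 4 WT muscles, which held for 20.3% of genes tested. A log2 fold change of at least 1 together with an adjusted p under 0.05 was reached by 5 of the 10, namely H2-D1, Tap1, Psmb8, Psmb9 and Nlrc5, against 10.3% of genes tested. In the count models, edgeR and DESeq2 on the recovered reads also placed 5 of the 10 past both thresholds, against 10.7% and 9.8% of the genes they tested. The limma count became 8 when mdx5cv replicate 3 was left out, because H2-K1, B2m and Tapbp, at 0.97, 0.90 and 0.96, sat just under the fold threshold. The median log2 fold change of the 10 genes was 1.07, against 0.0035 over all genes. Fold changes here are on the log2(normalized count + 1) scale, and p-values are from limma with Benjamini-Hochberg adjustment over all genes. In whole muscle, more cells of a type and more RNA per cell cannot be told apart.

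**Figure D1:**
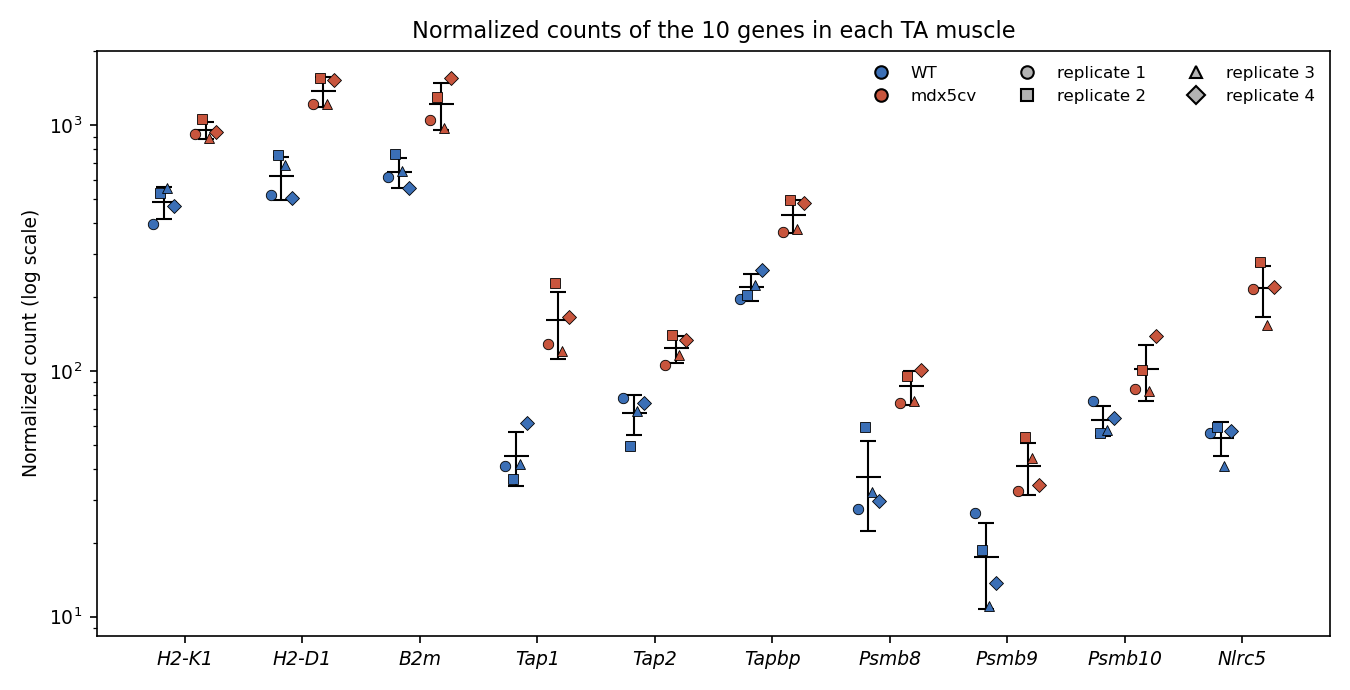
Normalized counts (log axis) of the 10 genes in each TA muscle, with WT in blue and mdx5cv in red and a marker shape for each replicate number. Bars give the mean and SD of 4 muscles. The red points of every gene lie above all of its blue points.

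The class I molecule consists of a heavy chain, which binds the peptide, and a light chain. H2-K1 (ENSMUSG00000061232.16, chr17:33996017-34000347 of GRCm38, minus strand) encodes the K heavy chain of the classical class I molecules. It had 396.5, 528.7, 558.4 and 469.3 normalized counts in WT replicates 1 to 4, and 922.7, 1064, 890.6 and 939.7 in mdx5cv replicates 1 to 4. The lowest mdx5cv muscle was thus above the highest WT muscle, and the groups were separated by more than their spread (log2 fold change 0.97, SE 0.12, limma adjusted p = 4.34e-05). H2-D1 (ENSMUSG00000073411.12, chr17:35262730-35267499, plus strand) encodes the D heavy chain. Its values were 522.6, 759.1, 691.0 and 506.3 in WT and 1221, 1556, 1217 and 1532 in mdx5cv. Within mdx5cv, replicates 2 and 4 were the higher pair, and the rise was 2.25-fold (log2 fold change 1.17, SE 0.15, limma adjusted p = 4.94e-05). B2m (ENSMUSG00000060802.8, chr2:122147686-122153083, plus strand) encodes beta-2 microglobulin, without which heavy chains do not reach the surface. It had 615.4, 767.8, 652.3 and 554.0 normalized counts in WT and 1056, 1299, 978.8 and 1558 in mdx5cv. The mdx5cv values spread more widely than those of the heavy chains and again did not overlap with WT (log2 fold change 0.90, SE 0.15, limma adjusted p = 0.000395).

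Peptides are moved into the endoplasmic reticulum by a transporter made of TAP1 and TAP2, and tapasin, the product of Tapbp, bridges the transporter and the empty class I molecule. Tap1 (ENSMUSG00000037321.17, chr17:34187553-34197225, plus strand) had 41.3, 36.2, 42.0 and 61.4 normalized counts in WT and 128.8, 228.3, 120.7 and 165.4 in mdx5cv. The lowest mdx5cv muscle stood well clear of the highest WT muscle, WT replicate 4, and the rise was 3.46-fold (log2 fold change 1.79, SE 0.22, limma adjusted p = 4.21e-05). Tap2 (ENSMUSG00000024339.12, chr17:34203527-34216321, plus strand) had 77.9, 49.4, 68.6 and 74.2 in WT and 105.6, 139.6, 116.2 and 133.4 in mdx5cv. The gap between the groups was smaller here, with a log2 fold change of 0.88 (SE 0.17, limma adjusted p = 0.00123). The 95% intervals of the log2 fold change, 1.32 to 2.26 for Tap1 and 0.51 to 1.24 for Tap2, did not overlap, although the difference between them was not tested. Tapbp (ENSMUSG00000024308.15, chr17:33915899-33929292, plus strand) had 196.0, 204.0, 224.4 and 258.5 normalized counts in WT and 369.6, 497.1, 380.0 and 481.1 in mdx5cv. Replicates 2 and 4 were again the higher pair among mdx5cv muscles (log2 fold change 0.96, SE 0.13, limma adjusted p = 0.000118). Tapbp shares 3422 bases with Zbtb22 on the same strand, and Zbtb22 had a mean of 150 normalized counts, so reads in that stretch are uncertain in origin.

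The immunoproteasome forms when PSMB8, PSMB9 and PSMB10 take the places of the constitutive catalytic subunits PSMB5, PSMB6 and PSMB7, which changes the ends of the peptides produced. Psmb8 (ENSMUSG00000024338.15, chr17:34197721-34201454, plus strand) had 27.5, 59.2, 32.1 and 29.7 normalized counts in WT and 74.1, 95.3, 75.6 and 101.5 in mdx5cv. WT replicate 2 was nearer to the lowest mdx5cv muscle than to the other WT muscles, and the groups still did not overlap (2.39-fold higher, limma adjusted p = 0.000951, 95% interval of the log2 fold change 0.75 to 1.76). Psmb9 (ENSMUSG00000096727.3, chr17:34181987-34187764, minus strand) had the lowest normalized counts of the 10 genes, with 26.4, 18.6, 11.1 and 13.8 in WT and 32.4, 53.8, 44.1 and 34.4 in mdx5cv. Between 10 and 23 reads stood behind each WT value, and so few reads limit the precision of this gene (log2 fold change 1.23, SE 0.28, limma adjusted p = 0.00379). In the GENCODE annotation Tap1 and Psmb9 overlap by 212 bases on opposite strands, whereas their RefSeq starts lie 226 bases apart. Psmb10 (ENSMUSG00000031897.9, chr8:105935735-105938444, minus strand) had 75.6, 55.9, 57.5 and 64.6 in WT and 84.3, 100.9, 82.8 and 139.0 in mdx5cv. It showed the smallest rise of the 10 genes, and mdx5cv replicates 1 and 3 were close to WT replicate 1 (log2 fold change 0.65, SE 0.19, limma adjusted p = 0.0129).

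NLRC5 is the transactivator that assembles on the promoters of class I genes, as CIITA does on those of class II genes. Nlrc5 (ENSMUSG00000074151.13, chr8:94434356-94527272, plus strand) had 56.2, 59.2, 40.9 and 57.2 normalized counts in WT and 216.8, 279.2, 154.0 and 219.8 in mdx5cv. Its rise of 3.97-fold was the largest of the 10 genes, and the lowest mdx5cv muscle, replicate 3, was far above every WT muscle (log2 fold change 1.99, SE 0.19, limma adjusted p = 6.04e-06). With its 95% interval of 1.59 to 2.39, the log2 fold change of Nlrc5 lay above the intervals of H2-K1 (0.72 to 1.23), H2-D1 (0.85 to 1.48) and B2m (0.58 to 1.22), whose promoters it acts on. These differences between genes were not tested.

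**Figure D2:**
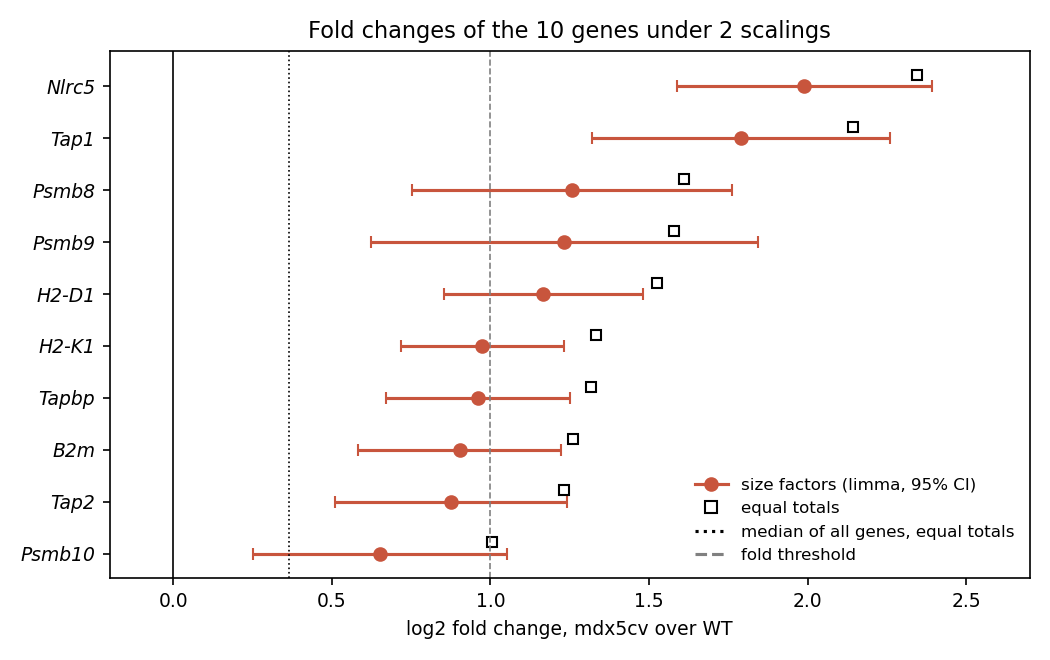
Log2 fold change of each gene in mdx5cv over WT, with filled circles and 95% confidence intervals for the size-factor scaling (limma) and open squares for equal library totals. The dashed line marks the fold threshold of 1 and the dotted line the median of all genes under equal totals (0.36). All intervals lie above 0, and all 10 squares lie above 1.

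The scaling of the libraries bears on the number of genes past the fold threshold. When all libraries were set to equal totals, the median of all genes moved to 0.36 and 10 of the 10 genes passed both thresholds. Their log2 fold changes then ran from 1.01 (Psmb10) to 2.34 (Nlrc5). Of all genes tested, 2339 of 13782 passed upward at that scaling, against 1414 of 13677 as reported. The direction of the 10 genes was the same under each scaling tried.

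Per kilobase of exon, the mean levels in WT ran from 753 normalized counts for B2m through 240 for H2-D1, 166 for H2-K1, 60.8 for Tapbp, 37.2 for Psmb10, 17.9 for Tap2, 11 for Psmb8, 8.26 for Tap1 and 6.28 for Nlrc5 to 4.77 for Psmb9. Among the genes ranked here, the chains of the class I molecule were thus the most abundant transcripts and the transactivator was among the scarcest. Other genes of the pathway were not ranked. In mdx5cv the levels per kilobase were 1422 for B2m, 536 for H2-D1, 325 for H2-K1, 119 for Tapbp, 59.7 for Psmb10, 32.7 for Tap2, 29.4 for Tap1, 25.6 for Psmb8, 25.6 for Nlrc5 and 11.2 for Psmb9. Tap1 thus moved above Psmb8, and Nlrc5 came level with it. The neighbouring levels of Tap2, Tap1, Psmb8 and Nlrc5 in mdx5cv were not tested against each other, and exon lengths of all annotated transcripts were joined, so orders between genes with close levels are approximate.

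The inducible subunits were also compared with their constitutive partners within each muscle, since that ratio does not depend on the size factor. Psmb5 had 413.6 ± 112 normalized counts in WT and 364.9 ± 28.8 in mdx5cv. Psmb6 had 1088 ± 174 and 758.2 ± 27.0, and Psmb7 had 1541 ± 78.0 and 1091 ± 93.0 (SD, n = 4 each). Psmb6 and Psmb7 were lower in mdx5cv (log2 fold changes -0.51 and -0.50, limma adjusted p = 0.00315 and 0.00128), while Psmb5 did not pass the test (-0.14, limma adjusted p = 0.506). Under equal totals the values of Psmb6 and Psmb7 were -0.15 and -0.14 and no longer passed, and that of Psmb5 turned to 0.21.

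The log2 ratio of Psmb8 to Psmb5, taken relative to its WT mean, was 0.03, 0.28, 0.09 and -0.40 in WT and 1.06, 1.63, 1.24 and 1.78 in mdx5cv. The ratio was 2.69-fold higher in mdx5cv (log2 difference 1.43, SE 0.22). For Psmb9 to Psmb6 the values were 0.87, -0.14, -0.52 and -0.20 in WT and 1.51, 2.18, 1.87 and 1.62 in mdx5cv, a ratio 3.47-fold higher (log2 difference 1.79, SE 0.34). For Psmb10 to Psmb7 they were 0.31, -0.10, -0.20 and -0.02 in WT and 0.91, 1.06, 0.86 and 1.82 in mdx5cv, a ratio 2.24-fold higher (log2 difference 1.16, SE 0.25). None of the 3 ratios overlapped between the groups. Each gave p = 0.0286 in a two-sided exact permutation test, which is the smallest p that 4 against 4 muscles allow, and 0.0286 after Benjamini-Hochberg adjustment over the 3 ratios. These are transcript ratios in whole muscle and do not measure assembled proteasomes.

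**Figure D3:**
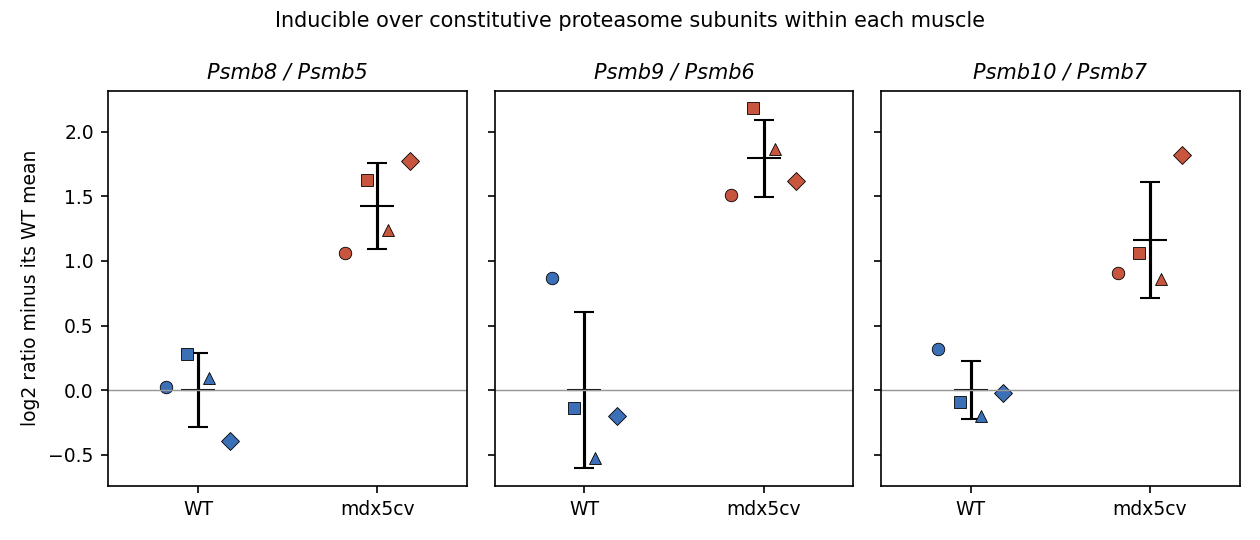
Log2 ratio of each inducible proteasome subunit to its constitutive partner within each muscle, minus the mean of the WT muscles, with WT in blue, mdx5cv in red and a marker shape for each replicate number. Bars give the mean and SD of 4 muscles. In all 3 panels the mdx5cv muscles lie above every WT muscle.

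Other proteasome genes did not share the rise. Of 9 listed, 8 were tested. None passed both thresholds in either direction (against 10.3% and 3.27% of all genes), which was also so with edgeR and DESeq2. The counts lower and higher at an unadjusted p under 0.05 were 4 and 0. At an adjusted p under 0.05 in limma, also 4 were lower and 0 higher, against 20.1% and 20.9% of all genes. Besides Psmb6 and Psmb7 these were Psme4, a nuclear proteasome activator (log2 fold change -0.45, limma adjusted p = 0.0183), and Psme1, a subunit of the interferon-inducible activator PA28 (-0.34, limma adjusted p = 0.0344). Psme2, the partner of Psme1 in that activator, had a value of 0.05. The proteasome maturation protein gene Pomp had 0.09. Under equal totals Psme1 turned to 0.01 and none of the 4 passed, while Pomp had 0.45 and passed upward (limma adjusted p = 0.0337). The list median was then 0.11, against -0.24 as reported, and the median of all genes was 0.36.

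Among 15 further class I heavy chain genes, 9 were tested, of which 7 rose past an adjusted p of 0.05 (against 20.9% of all genes). The median log2 fold change of the 9 was 0.99. Both thresholds were passed by 4 of the 9 (against 10.3%). H2-T23, which encodes the Qa-1 molecule seen by NK cell receptors, had 66.5 to 132.7 normalized counts in WT and 170.2 to 314.1 in mdx5cv (log2 fold change 1.21, SE 0.22, limma adjusted p = 0.00085). H2-M3, which presents formylated peptides, had 12.1 to 29.9 in WT and 33.6 to 65.1 in mdx5cv (1.33, SE 0.30, limma adjusted p = 0.00311). H2-Q7 had 18 to 43.1 and 82.3 to 96.2 (1.64, limma adjusted p = 0.000307), and H2-T10, whose groups overlapped, gave 1.07 (limma adjusted p = 0.0475). Centred on the median of each muscle, H2-T10 passed neither threshold (0.98, limma adjusted p = 0.0641). H2-Q4 had a log2 fold change of 0.99, H2-T24 0.97 and H2-Q6 0.80, and these also passed the test without the fold threshold. Many of these genes are near-identical copies of each other and of the classical heavy chains, so reads may be split among them and values of single genes are uncertain. H2-M2 had no read in any WT muscle and 6.3 to 12 normalized counts in mdx5cv, and its mean was under the limit for testing. Mr1 moved the other way. It encodes a class I-like molecule that presents bacterial metabolites, and it had 252.1 to 364.2 normalized counts in WT and 154.2 to 240.6 in mdx5cv (-0.73, limma adjusted p = 0.00254).

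Of 8 further genes of peptide trimming and loading, 2 were higher and 1 was lower at an adjusted p under 0.05, and 1 passed both thresholds. These shares are near those over all genes (20.9%, 20.1% and 10.3%). Under equal totals, where the median of all genes moved to 0.36, 6 were higher and 0 lower. Pdia3, a disulfide isomerase of the peptide-loading complex that also folds many other glycoproteins, had 190.2, 207.3, 196.8 and 229.9 normalized counts in WT and 495.6, 401.9, 419.6 and 779.9 in mdx5cv (log2 fold change 1.29, SE 0.18, limma adjusted p = 0.00011). Mdx5cv replicate 4 was by far its highest muscle, unlike most of the 10 genes. The chaperones Calr and Canx, which hold unfolded heavy chains, had values of 0.15 and 0.28 and did not pass, whereas under equal totals they had 0.51 and 0.64 and passed (limma adjusted p = 0.00753 and 0.0012). Bcap31, which helps class I molecules leave the endoplasmic reticulum, had 0.46 (limma adjusted p = 0.0437), a call that was lost when each muscle was centred on its median (0.36, limma adjusted p = 0.0982). Without mdx5cv replicate 2 or without replicate 4, 1 of the 8 genes was higher in place of 2. Erap1, the peptidase that trims peptides inside it, had -0.43 (limma adjusted p = 0.0267), a value that was -0.08 and did not pass under equal totals.

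**Figure D4:**
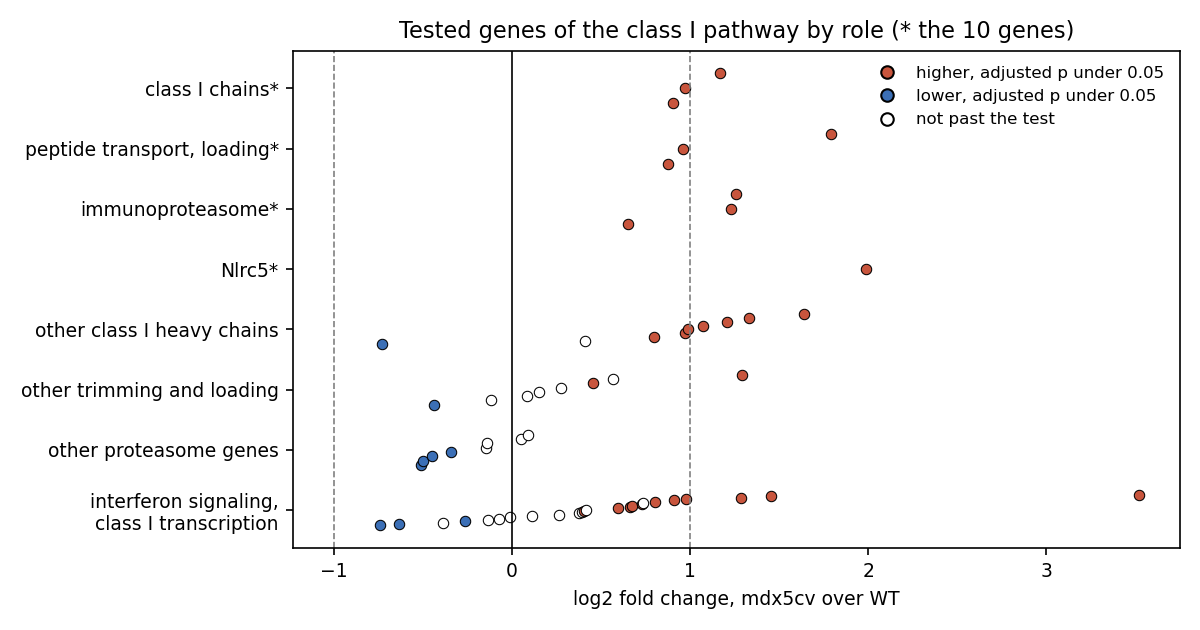
Log2 fold change in mdx5cv over WT of each tested gene of the class I pathway, in rows by role, with the 4 top rows holding the 10 genes. Red and blue points were higher and lower at an adjusted p under 0.05 and open points did not pass. The rows of the 10 genes hold only red points, and the other proteasome genes lie between -0.51 and 0.09.

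Class I genes respond to interferons through JAK kinases and IRF factors, among others, and 27 genes of this signaling and of class I transcription were listed. Of these, 24 were tested. At an adjusted p under 0.05, 11 were higher and 3 lower, against 20.9% and 20.1% of all genes. Under equal totals the split was 15 and 1, but there the median of all genes itself moved to 0.36. Both thresholds were passed upward by 3 of the 24, a share near the 10.3% of all genes. The listed interferon genes were at or near 0, since Ifnb1 had no read in any muscle and Ifng had 0.9 normalized counts in mdx5cv replicate 3 and none elsewhere. Other interferon genes were not in the list. Irf1, an interferon-induced factor that drives class I genes, had 114.6, 93.2, 110.6 and 114.4 normalized counts in WT and 148.2, 259.4, 133.3 and 203.0 in mdx5cv (log2 fold change 0.73, SE 0.19, limma adjusted p = 0.00778). Its highest muscle was mdx5cv replicate 2, as for 4 of the 11 genes of the list that were higher, while the other 7 were highest in replicate 4. Stat2 and Irf9, which take part in the response to type I interferon, had 1.29 (limma adjusted p = 0.00133) and 0.91 (limma adjusted p = 0.000859). The receptor genes Ifnar1, Ifnar2 and Ifngr1 had 0.67, 0.98 and 0.41 and also passed the test, although Ifngr1 did not when centred on the median (0.31, limma adjusted p = 0.0769). For Ifnar2 and Ifngr1 the groups overlapped. Ifngr2, the other receptor gene of the list, had -0.07 and did not pass (limma adjusted p = 0.61).

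Ciita, the class II counterpart of Nlrc5, rose more than any of the 10 genes, from 16.4 ± 8.24 to 184.6 ± 54.1 normalized counts (SD, n = 4; log2 fold change 3.52, SE 0.33, limma adjusted p = 6.47e-06). Irf8, a factor of myeloid cells, had 36.7 to 62.5 in WT and 82.8 to 239.7 in mdx5cv (1.45, limma adjusted p = 0.00117). Jak2, a kinase at the interferon gamma receptor, was lower, with 813.5 to 940.0 in WT and 439.5 to 703.7 in mdx5cv (-0.74, limma adjusted p = 0.000965). Rfxap, a subunit of the RFX complex on class I and II promoters, was lower too (-0.63, limma adjusted p = 0.014), a call that was lost under equal totals (-0.28, limma adjusted p = 0.216), whereas Rfx5 and Rfxank, the other subunits, had 0.41 and 0.11 and did not pass.

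Some markers of cell types that carry class I abundantly were also higher in mdx5cv muscle. All 10 macrophage markers passed both thresholds upward, against 10.3% of all genes, with a median log2 fold change of 3.24. They summed to 569.6 to 845.3 normalized counts in WT and 4216 to 10123 in mdx5cv. Markers of T and NK cells summed to 3.32 to 5.30 in WT and 25.9 to 67.9 in mdx5cv. None of these 11 genes reached the limit for testing, and Cd3e, Cd8a, Nkg7, Klrb1c, Ncr1 and Gzmb were at 0 in every WT muscle. Dendritic cell markers summed to 116.3 to 153.6 and 363.8 to 732.0, with 1 of the 3 tested passing both thresholds. That marker was Itgax (log2 fold change 5.78), whereas Zbtb46 (0.05) and Cd209a (0.39) did not pass. Flt3, Xcr1 and Clec9a had means under the limit for testing. For each of them all mdx5cv muscles lay above all WT muscles, which held for 20.3% of genes tested. Neutrophil markers summed to 4.58 to 14.3 and 27.9 to 98.3, where the 1 tested marker, Csf3r, passed (2.29 to 8.85 normalized counts in WT and 23.4 to 91.9 in mdx5cv). The other 3, S100a8, S100a9 and Ly6g, overlapped between the groups, so the higher sum was that of Csf3r. B cell markers summed to 4.42 to 17.6 and 1.80 to 12.8, and none was tested. Endothelial markers went the other way, with sums of 2944 to 3575 and 1784 to 2340. At an adjusted p under 0.05, 6 of 6 were lower, against 20.1% of all genes. Under equal totals, where the median of all genes moved to 0.36, 3 of 6 were lower. The part of these cell types in the rise of the 10 genes was not tested.

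Fibroblast markers summed to 6387 to 9689 in WT and 22460 to 41026 in mdx5cv, with 4 of 6 passing both thresholds (against 10.3% of all genes). These were Col1a1, Col3a1, Col1a2 and Lum, with log2 fold changes of 3.13, 3.09, 2.29 and 1.19. Pdgfra had 0.63, and Dcn had -0.24 and did not pass (limma adjusted p = 0.425). Markers of regenerating fibers, all 6 of which passed, summed to 198.3 to 228.9 and 2514 to 9398. Fast fiber markers had 3 of 8 lower at an adjusted p under 0.05 and 1 past both thresholds downward, against 20.1% and 3.27% of all genes. Under equal totals these counts were 1 and 0, and the list median turned from -0.24 to 0.12, while that of all genes was 0.36. Their part was likewise not tested.

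The order of the mdx5cv muscles was not the same for the 10 genes and for these markers. Mdx5cv replicate 2 was the highest muscle for 7 of the 10 genes and replicate 4 for the other 3, while replicate 3 was the lowest for 6 and replicate 1 for 4. On the log2(normalized count + 1) scale, the mean of the 10 genes above the WT mean was 1.0, 1.42, 0.98 and 1.32 in mdx5cv replicates 1 to 4. The median macrophage marker was 2.99, 3.05, 2.46 and 3.85 above, highest in replicate 4. The median T and NK cell marker was 0.95, 2.26, 1.89 and 2.19 above, highest in replicate 2. All 11 genes of that list were under the limit for testing, so this order rests on few reads. The median marker of regenerating fibers was 5.07, 4.05, 4.66 and 5.74 above, with replicate 2 the lowest. With 4 muscles in a group these orders are descriptions.

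**Figure D5:**
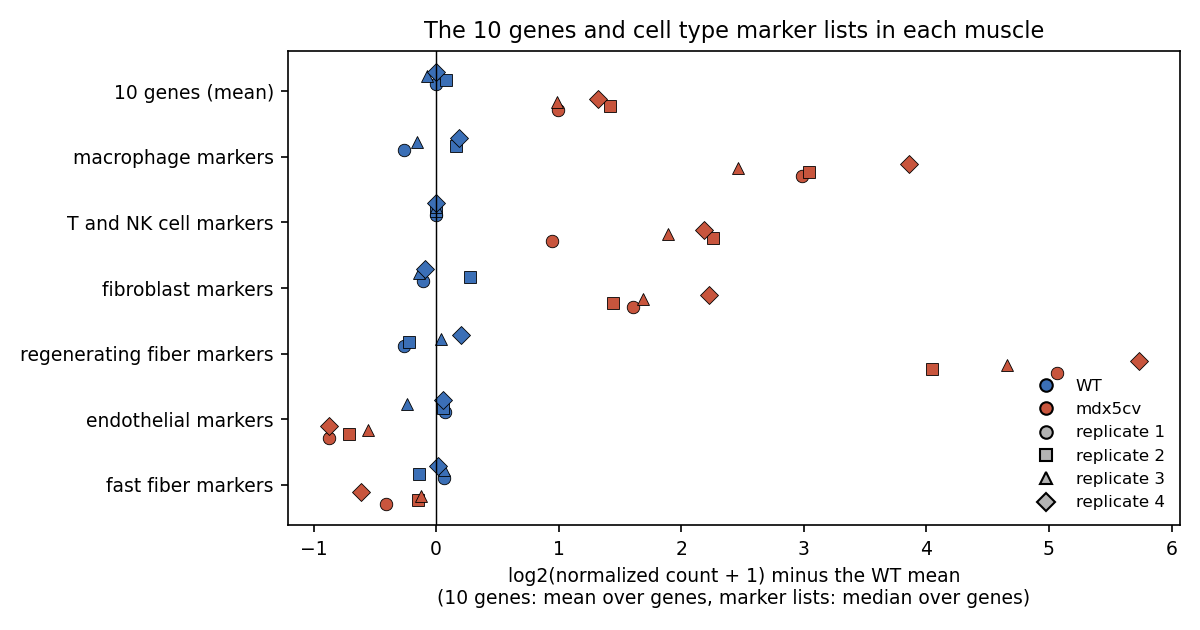
Log2(normalized count + 1) minus the WT mean in each muscle, for the mean of the 10 genes and the median gene of 6 marker lists, with WT in blue, mdx5cv in red and a marker shape for each replicate number. The 10 genes are highest in mdx5cv replicate 2, at 1.42, and macrophage and regenerating fiber markers in replicate 4, at 3.85 and 5.74. All T and NK cell markers were under the limit for testing.

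The genes whose pattern over the 8 muscles was closest to the mean of the 10 were sought among 7635 genes with a mean of at least 100 normalized counts. Fgl2, which encodes a secreted and membrane protein of macrophages and T cells, was the closest, at a root mean square distance of 0.0857 on the log2 scale. Its deviations in mdx5cv replicates 1 to 4 were 1.04, 1.52, 1.03 and 1.5. Lrrk1, Samhd1, Axl and Qsox1 followed at distances of 0.157, 0.161, 0.161 and 0.165. Samhd1 encodes an antiviral nucleotide hydrolase and Axl a receptor kinase in the uptake of dying cells. Their log2 fold changes were 1.27 for Fgl2, 1.13 for Lrrk1, 1.01 for Samhd1, 1.03 for Axl and 1.21 for Qsox1. They were chosen for this pattern, so no test is attached.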

How the data were processed

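Bulk RNA-seq was analysed from 4 mdx5cv and 4 WT samples of TA muscle, grouped by their labels. Libraries were stranded total RNA with ribosomal depletion, extracted with Trizol. The values that the authors deposited are a signal for every gene, in which read counts had been scaled by the size factor of the library. The submitters' processing notes name FastQC, Trim Galore 0.6.4, STAR 2.6.0c, SAMtools 1.9, featureCounts, MultiQC 1.6, DESeq2 1.26.0, R 3.6.2 and mm10. The annotation and strand setting used in counting are not given in the sources used here, so overlapping genes are uncertain. Multiplying by the size factors gave whole reads for 100% of values (tolerance 0.01). Gene IDs were matched to GENCODE M21 with versions ignored (55141 of 55401), which gave coordinates and exon lengths.

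Groups were compared with limma 3.58.1 (R 4.3.3) with a variance trend and two-sided tests, after log2 transformation of normalized counts plus 1, over 13677 genes with a mean of at least 10, with Benjamini-Hochberg adjustment. A gene passed both thresholds when its adjusted p was under 0.05 and its log2 fold change was 1 or more in size. Ratios of proteasome subunits, with no pseudocount, were compared by exact permutation tests. Alternatives were edgeR 4.0.16 and DESeq2 1.42.0 on the recovered reads, other pseudocounts, filters, scalings and fold thresholds, a replicate block, and each muscle left out. Equal totals without mitochondrial genes was added after the data were seen. The scripts were tested on simulated data. Replicates differed by 8.59 to 38.4 chi-square units per degree of freedom, so none was counted as a copy. The labels do not say more of the replicates than their number, so p-values measure the spread between these muscles.

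The 10 genes and all lists were chosen with earlier results of these data known. A gene of the interferon list is counted but not reported here. The genes named are the 10 genes, genes of the pathway lists past the test, constitutive partner subunits and list members named for their role, and the 5 genes nearest in pattern. Pathway genes named though they did not pass and the spacing of TGACG and ATTGG were chosen after their values or sequences were seen. Promoter windows are from RefSeq. Other steps used matplotlib 3.10.9, scipy 1.17.1, pandas 2.3.3 and numpy 2.4.6 in Python 3.11.15.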

Additional observations from a re-analysis of the deposited data

Results flagged for a closer look

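Nlrc5 was lowest in WT replicate 3, at 5.39 on the log2(normalized count + 1) scale, apart from the other 3 WT muscles, which lay between 5.84 and 5.91. The gap took 0.855 of the range of the WT group, above the 95% critical value of Dixon's test for 4 values. Of 26 sets of 4 values tested in this way, 1 stood out, and chance gives about 1 in 20. All 4 mdx5cv muscles were above every WT muscle for this gene with or without that replicate.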

How the results depend on the processing

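The 10 genes kept their direction and an adjusted p under 0.05 in all 190 values from 19 alternatives each, with adjusted p up to 0.0388 (Psmb10, without WT replicate 3). The number of the 10 past both thresholds, 5 as reported, was 10 under equal totals, 9 under equal totals without mitochondrial genes, 4 with a pseudocount of 10, where Psmb9 had 0.91, and 0 with a fold threshold of 2 on the log2 scale. It ranged from 5 to 8 as each muscle was left out, with 8 without mdx5cv replicate 3. It was 5 with edgeR (10.7% of all genes passed) and 5 with DESeq2 (9.8%). Under equal totals, 7 of the other class I heavy chains and 9 interferon and transcription genes passed, against 4 and 3 as reported. Of all genes tested, 2339 of 13782 passed upward under equal totals and 1871 of 13744 under equal totals without mitochondrial genes. As reported, 1414 of 13677 did. With the fold threshold of 2, 0 of the heavy chains, 0 of the loading genes and 1 interferon gene passed. Leaving out each muscle gave 3 to 5 heavy chains and 3 to 4 interferon genes. Over all genes tested, the median log2 fold change was 0.0035 as reported, 0.36 under equal totals and 0.22 without mitochondrial genes.

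The deviations of same-numbered muscles had correlations of 0.050, 0.031, 0.072 and 0.146, and those of other pairs ran from -0.148 to 0.074. These values do not settle whether the replicate numbers pair the muscles. With the replicate block 5 of the 10 passed both thresholds, and all 10 passed at an adjusted p under 0.05. The log2 differences of the subunit ratios with the replicate block were 1.43, 1.79 and 1.16, each with p = 0.125 in an exact paired permutation test, the smallest p it allows. Leaving out each muscle gave 1.29 to 1.55 for Psmb8 to Psmb5, 1.62 to 2.08 for Psmb9 to Psmb6 and 0.94 to 1.27 for Psmb10 to Psmb7, where the smallest exact p of 3 against 4 muscles is 0.0571. Neither design can pass the threshold. Depth limited Psmb9, with 10 to 23 reads in WT muscles.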
